A study of Mus musculus with 17 samples.

Results

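Neat1 is a long noncoding RNA of the nucleus, and it is described here as 1 of the 26131 genes in a single-nucleus RNA count table of mouse brain, across the cell type labels, clusters and treatments of that table. It was taken by its gene name. The row held 145292 unique molecular identifiers (UMIs, each a counted RNA molecule) out of 1099241149, in 67003 of 284074 nuclei (23.6%). The nuclei came from the posterior brain of 17 female mice of 2.3 months, each with both copies of the transferrin receptor gene carrying the human TfR knock-in and each injected intravenously 4 times over 24 days, with tissue taken 72 hours after the last injection. The groups were saline (n = 4), Malat1 ASO, which is the unconjugated antisense oligonucleotide, at 2 mg per kg (n = 4), anti-TfR:Malat1 at 50 mg per kg (n = 6) and OTV:Malat1 at 50 mg per kg (n = 3). The last 2 carry the oligonucleotide on a TfR-binding protein, and the dose of the free form was set to match them in oligonucleotide. Because every animal, saline included, carried the knock-in, nothing here describes Neat1 in mice without it. No label said that the animals came from separate litters, so p-values measure the spread between these animals.

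Neat1 is the scaffold of paraspeckles, nuclear bodies in which the long form of the RNA is bound by proteins such as NONO, SFPQ and PSPC1. A short form with a poly(A) tail comes from the same start site, and the long form ends without such a tail. Malat1, the neighbouring gene, makes an abundant RNA of a different body, the nuclear speckle, and antisense oligonucleotides of this kind lead to the loss of the RNA they bind.

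In the GENCODE vM21 annotation (GRCm38) Neat1 (ENSMUSG00000092274.3) is a lincRNA on the minus strand at chr19:5824708-5845478, with no protein product. Its longest transcript, Neat1-201, is a single exon of 20771 bases, and Neat1-202, which starts at nearly the same place, has 3004 exon bases. The count table has 1 row for the gene, so the short and the long forms could not be told apart. Malat1 (ENSMUSG00000092341.3) lies downstream on the same strand at chr19:5795690-5802672, with 22035 bases between them. On the other side lie Frmd8os, an antisense RNA that begins 144 bases away, and the protein-coding gene Frmd8, at 4223 bases. Since the oligonucleotide was made against Malat1, the longest run of bases that the RNAs of Neat1 and Malat1 share is shown here, with 10 bases on either side and the shared 29 bases in capitals, as RNA-sense DNA read from the GENCODE transcripts.
Neat1, chr19:5834189-5834237: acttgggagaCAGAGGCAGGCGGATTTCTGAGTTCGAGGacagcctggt
Malat1, chr19:5802032-5802080: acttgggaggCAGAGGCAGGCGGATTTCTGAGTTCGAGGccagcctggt
Of the 20536 different 16-base words of Neat1-201, 27 also occur in Malat1-201 on the same strand. The run of capitals is not particular to this pair, as 207 of 55341 genes (0.37%) have it in a transcript. Whether the oligonucleotide binds in or near this run was not tested, since its sequence was not at hand.

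Each animal gave 13841 to 18365 nuclei and 55393588 to 79866411 UMIs, of which 5524 to 13221 were Neat1. Malat1 took 6.02% of all UMIs, or 455 for each Neat1 UMI, and over all nuclei its share ran from 4.65% to 8.09% in saline animals. Malat1 ASO gave 4.60% to 7.60%, anti-TfR:Malat1 gave 4.64% to 7.22% and OTV:Malat1 gave 3.34% to 4.35%. The authors called 16.8% of the nuclei doublets and left them in the table. Of 273792 distinct cell barcodes, 10044 (3.67%) occurred in more than 1 animal. Each of the 4 deposited batches had an animal of saline, one of Malat1 ASO and at least one of anti-TfR:Malat1, and OTV:Malat1 was in all but batch 1.

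Across the deposited cell type labels, Neat1 was highest in oligodendrocytes, the myelinating cells, and lowest in neurons. In saline the oligodendrocyte level was 1087, 964, 1096 and 818 Neat1 UMIs per 1000000 UMIs (counts per 1000000, CPM) in replicates 1 to 4, a mean of 991 ± 130 (SD, n = 4). The neuron level was 24.1, 26.8, 30.6 and 26.1 CPM, a mean of 26.9 ± 2.7 (SD, n = 4), which put oligodendrocytes 36.8-fold higher with no overlap. These are descriptions with no test, because the labels were made from the same nuclei.

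Between those ends came vascular cells at 502 ± 111 CPM (SD, n = 4), perivascular macrophages, the scavenging cells along vessels, at 439 ± 159, nuclei labelled Glia at 258 ± 129, astrocytes at 193 ± 39.0 and microglia, the resident immune cells, at 104 ± 25.8. Oligodendrocytes were 1.98-fold above vascular cells, astrocytes 1.85-fold above microglia and microglia 3.86-fold above neurons, each with no overlap among the saline animals and each in the same order in 17 of 17 animals. The neighbours in between could not be ordered. Vascular cells exceeded perivascular macrophages in 8 of 17 animals, perivascular macrophages exceeded Glia in 11 and Glia exceeded astrocytes in 10, with ranges that overlapped in saline. The Glia label covered only 225 nuclei, 57 of them in saline, and was in no test.

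**Figure D1:**
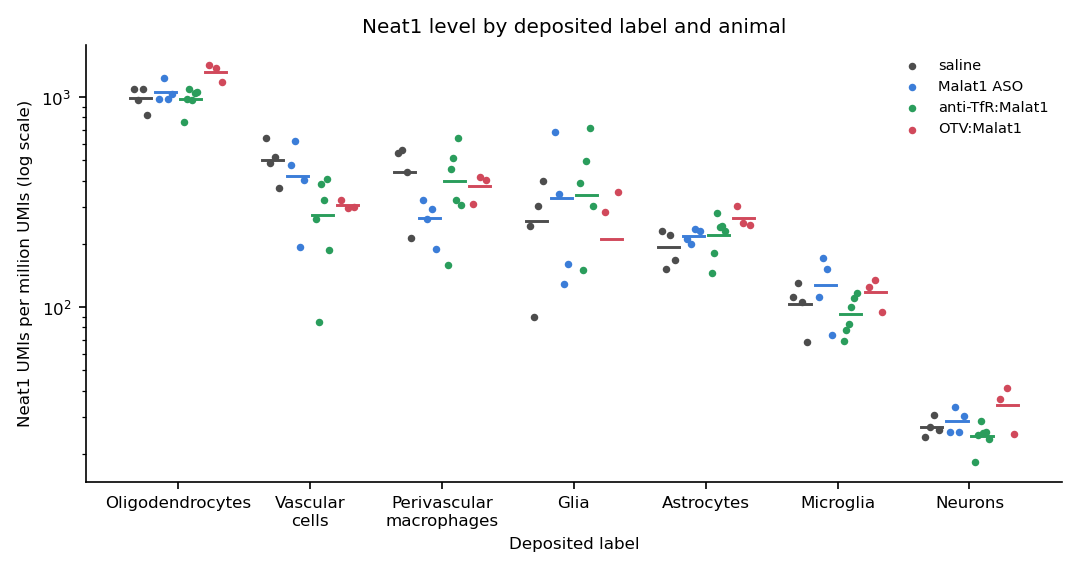
Neat1 level (CPM, log axis) in each deposited label, with 1 point per animal, a bar at the group mean and the groups in colour; 2 animals with no Neat1 UMI among their Glia nuclei do not appear on the log axis. Oligodendrocytes sat at 758 to 1415 CPM and neurons between 18.3 and 41.2; the other labels lay in between, apart from the few Glia nuclei, which ran from 0 to 714.

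Oligodendrocytes were 26.5% of the nuclei and gave 78.7% of the Neat1 UMIs, whereas neurons were 68.0% of the nuclei and gave 18.5%. Of the Malat1 UMIs 12.5% came from oligodendrocytes and 85.4% from neurons, close to the 9.81% and 88.2% of all UMIs that these labels held. The level over all nuclei therefore moves with the share of oligodendrocyte nuclei in an animal as well as with the RNA in them, and for such sums fewer nuclei of a type and less RNA per nucleus cannot be told apart. The label was checked against Mbp, a defining gene of myelin, which was at 4307 CPM in saline oligodendrocytes, with 3.20% of that level under the neuron label.

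Per nucleus, Neat1 was a low count in every label. After each nucleus was thinned to 500 UMIs, 63.2% of saline oligodendrocyte nuclei had no Neat1 UMI, 26.0% had 1 and 10.8% had 2 or more. The variance over the mean was 1.22. Oligodendrocytes had at least 1 Neat1 UMI in a mean of 36.7% of nuclei per saline animal, vascular cells in 14.1%, perivascular macrophages in 18.5%, astrocytes in 8.04%, microglia in 3.64% and neurons in 1.92%. Without thinning, the shares over all animals were 65.4% of oligodendrocyte nuclei at a median of 1279 UMIs and 7.87% of neuron nuclei at a median of 4614 UMIs, so the gap was there although the neurons were read more deeply. Free RNA gives some UMIs to nuclei that do not make a transcript. In cluster 1, the largest cluster of neurons, the share at 500 UMIs was 0.29% at a median depth of 3572 UMIs. Every label's share lay above it, but cluster 1 had the lowest saline level of all clusters, 6.06 CPM. It is also part of the neuron label, so it sets no floor of free RNA for the labels. The part of free RNA in their shares was not tested. The most Neat1 UMIs in any nucleus was 33, in a vascular nucleus of saline replicate 1.

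Over the 20 deposited clusters, the 3 of oligodendrocytes stood apart from the rest. Cluster 0 had 1088 ± 126 CPM (SD, n = 4 saline animals), cluster 15 had 1010 ± 148 and cluster 2 had 893 ± 154, and their ranges overlapped one another. The next was cluster 14, mostly astrocytes, at 204 ± 25.0. Cluster 13, whose summed precursor markers (Pdgfra, Vcan, Cspg4, Ptprz1 and Lhfpl3) reached 12395 CPM, had 12.2 ± 7.24 CPM of Neat1 although its markers are those of the oligodendrocyte lineage. Of the nuclei of cluster 13, 94.3% carried the neuron label, so the neuron label as given includes them. The saline nuclei of cluster 13 labelled oligodendrocytes, 107 in all, had 16.7 ± 11.8 CPM. So within the lineage the level in cluster 13 was below that of every oligodendrocyte cluster in all saline animals.

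**Figure D2:**
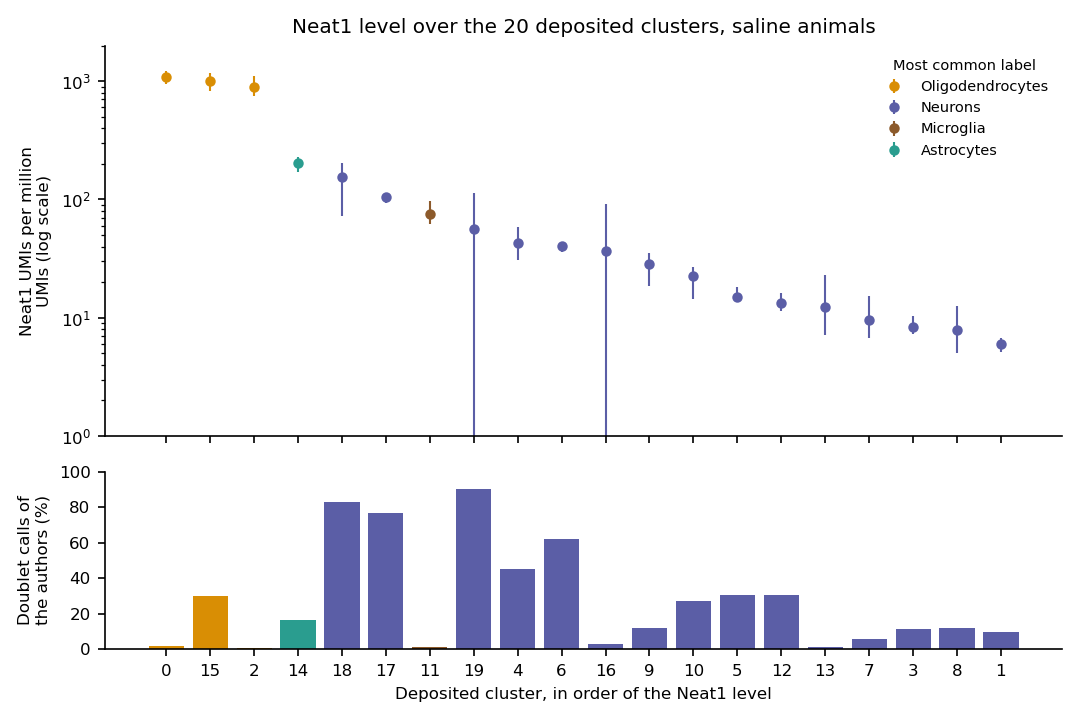
Upper panel, Neat1 level (CPM, log axis) of the 20 deposited clusters in saline, as the mean with the range over 4 animals (a range that reaches the axis floor includes 0), coloured by the most common label. Lower panel, the percent of each cluster's nuclei that the authors called doublets; several neuron-labelled clusters of intermediate Neat1, such as 18, 17, 19 and 6, were mostly doublets.

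Much of the Neat1 counted under the neuron and microglia labels lay in nuclei whose cluster did not match the label or which the authors called doublets. Neuron-labelled nuclei in cluster 0 had 874 ± 93.3 CPM and those in cluster 2 had 734 ± 231, both close to the oligodendrocytes of the same clusters. Microglia in cluster 11 had 55.7 ± 10.5 CPM, whereas the microglia in cluster 18, of which 80.1% were doublet calls, had 675 ± 76.1. When nuclei were kept only where the label was the most common of its cluster, without cluster 13 and without doublet calls, neurons were at 4.93 ± 0.54 CPM, microglia at 55.3 ± 9.90, astrocytes at 154 ± 42.5 and oligodendrocytes at 1034 ± 139 (SD, n = 4 saline animals). This choice of nuclei was made after the levels had been seen.

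RNA of oligodendrocytes was present under the other labels too, and the share of Neat1 can be set beside that of Mbp. In the matched nuclei without doublets, the neuron level was 0.48% of the oligodendrocyte level for Neat1 and 1.21% for Mbp, so the share of Neat1 there was below that of the myelin RNA. Astrocytes were at 14.8% for Neat1 against 1.44% for Mbp. Microglia were at 5.36% for Neat1 against 2.25% for Mbp. Under the labels as given, vascular cells were at 50.3% for Neat1 against 5.63% for Mbp, and perivascular macrophages at 43.5% against 9.07%. The part of transferred RNA in the astrocyte, microglial, vascular and macrophage levels was not tested.

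The genes whose pattern over the 20 clusters was most like that of Neat1 were D7Ertd443e, Olfml1, Plekhg3, Mog and Tmem63a. Likeness was Pearson's r of the saline mean of log2(CPM + 1), among 14285 genes that reached 10 CPM in some cluster. It is a description, since clusters share libraries and differ in depth. D7Ertd443e stood first with r = 0.97, and 0.92 without the 3 oligodendrocyte clusters, Mog, a myelin surface protein, had 0.96 and Malat1 ranked only 642nd with 0.74. The RNAs of the core paraspeckle proteins were less like Neat1, with r = 0.38 for Nono, 0.27 for Sfpq and 0.17 for Pspc1. Their cluster means ran from 25.7 to 146 CPM for Nono, 158 to 262 for Sfpq and 90.6 to 129 for Pspc1. Nono was at 51.9 ± 5.19 CPM in saline oligodendrocytes and 33.7 ± 4.54 in neurons, Sfpq at 221 ± 27.5 and 189 ± 19.9, and Pspc1 at 108 ± 14.6 and 106 ± 4.22 (SD, n = 4). The neighbour Frmd8, which encodes a FERM-domain protein, was also higher in oligodendrocytes, at 93.0 ± 7.73 against 7.54 ± 0.66 CPM in neurons.

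Set against Malat1, oligodendrocytes were again above neurons. Saline oligodendrocytes had 9.08, 9.45, 10.1 and 10.5 Neat1 UMIs per 1000 Malat1 UMIs, and neurons had 0.33, 0.42, 0.41 and 0.61. The ratio is one of counted molecules and is used to compare labels and groups, not as the level of one gene over the other. Malat1 was found in 99.99% of nuclei, and only 80 nuclei held more Neat1 than Malat1.

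Whether Neat1 changed with treatment was asked by comparing each treated group with saline and OTV:Malat1 with anti-TfR:Malat1. The 3 comparisons with saline share the same 4 saline animals. The edgeR quasi-likelihood fits on summed UMIs, with the deposited batch in the model and Benjamini-Hochberg adjustment over all genes, passed Neat1 in 0 of 28 fits (7 fits, over all nuclei and 6 labels, in each of 4 comparisons), and DESeq2 passed it in 0 of 28 as well. Before adjustment, 4 of the 28 edgeR p-values were under 0.05, and they are given below. Against this stands a small background of genes called. Over all nuclei 0 of 21375 genes (0%) were called in each of the 4 comparisons, with 199, 408, 449 and 862 genes under an unadjusted 0.05, in the order Malat1 ASO, anti-TfR:Malat1, OTV:Malat1 (each against saline) and lastly the pair of conjugates. In oligodendrocytes OTV:Malat1 had 3 of 14419 genes called against saline (0.0208%) and 1, Malat1, against anti-TfR:Malat1 (0.00694%). The 3 were Malat1, Saa3 and Slc35f2, the last 2 named after their values were seen, and both of those calls were lost without doublets and with Malat1 left out of library sizes.

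Over all nuclei the saline animals had 175, 143, 121 and 98.9 CPM of Neat1, the Malat1 ASO animals 155, 148, 109 and 117, and the OTV:Malat1 animals 171, 208 and 113. The 6 anti-TfR:Malat1 animals ran from 98.8 through a median of 109.8 to 144 CPM. All ranges overlapped. The edgeR difference from saline on the log2 scale was -0.01 (SE 0.16) for Malat1 ASO, -0.14 (SE 0.14) for anti-TfR:Malat1 and 0.28 (SE 0.17) for OTV:Malat1. The last was 0.04 without OTV:Malat1 replicate 2 and 0.50 without replicate 3, and that for anti-TfR:Malat1 ran from -0.25 without saline replicate 4 to -0.04 without saline replicate 1. Between the conjugates the difference, OTV:Malat1 minus anti-TfR:Malat1, was 0.42 (SE 0.16), with an edgeR adjusted p of 0.878 and an unadjusted value of 0.0173. Within batches that difference was positive in 2 of 3, from -0.23 to 1.01, and over all batches it was 0.17 without OTV:Malat1 replicate 2 and 0.66 without replicate 3.

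In oligodendrocytes, the cells that hold most of the Neat1, all 3 OTV:Malat1 animals stood above all saline animals. Their levels were 1415, 1371 and 1176 CPM, a mean of 1320 ± 127 (SD, n = 3) against 991 ± 130 in saline. The Malat1 ASO animals had 975, 1226, 983 and 1032 CPM, and the anti-TfR:Malat1 animals ran from 758 through a median of 1009.7 to 1096, so both overlapped saline. Malat1 fell in these nuclei (edgeR log2 -2.72, SE 0.13), where it took 11.96%, 10.2%, 10.9% and 7.83% of saline UMIs and 1.90%, 1.61% and 1.50% of OTV:Malat1 UMIs.

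Such a drop in an abundant RNA raises the CPM of every other gene. The median gene was 0.18 higher on the log2 CPM scale in OTV:Malat1 against saline, or 0.05 once Malat1 UMIs were left out of the total. Over the 1854 genes of higher CPM, Neat1 among them, the median was 0.10 with Malat1 UMIs in the total. Counted per 1000000 UMIs other than Malat1, Neat1 was at 1442, 1393 and 1193 in OTV:Malat1 and at 1234, 1074, 1230 and 887 in saline, and the groups then overlapped. The edgeR fit, which scales libraries by TMM, gave 0.21 (SE 0.12) with an adjusted p of 0.983, and 0.10 without saline replicate 4, 0.13 without saline replicate 2 and 0.14 without OTV:Malat1 replicate 1. The exact permutation test of log2(CPM + 1), two-sided over 7 animals, gave a difference of 0.42 with p = 0.0571, the smallest that 3 animals against 4 allow, and 0.32 after adjustment over 28 tests. Within batches 2, 3 and 4 the difference between OTV:Malat1 and saline was 0.55, 0.32 and 0.52 in CPM, and 0.43, 0.18 and 0.43 per 1000000 UMIs other than Malat1.

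**Figure D3:**
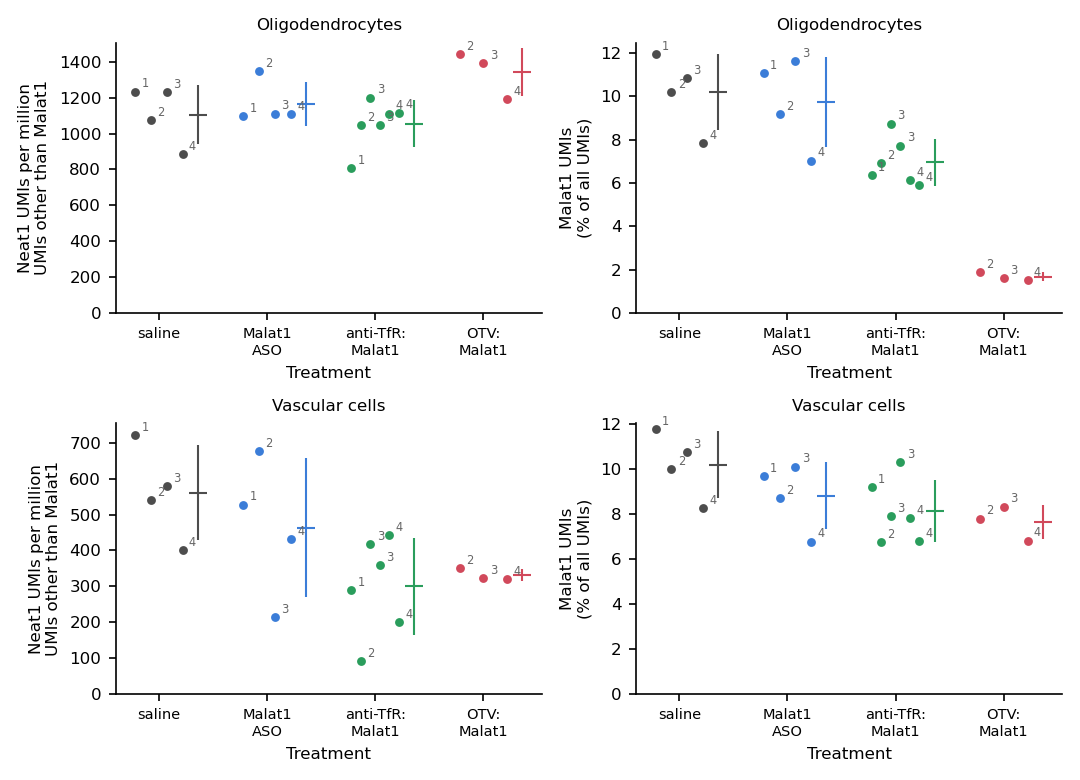
Neat1 per 1000000 UMIs other than Malat1 (left) and Malat1 as a percent of all UMIs (right) in oligodendrocytes (top) and vascular cells (bottom), with 1 point per animal marked by its batch number, and the mean ± SD beside each group. In oligodendrocytes Malat1 lay at 1.50% to 1.90% in OTV:Malat1 while Neat1 ran from 1193 to 1442 there and from 887 to 1234 in saline.

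The share of oligodendrocyte nuclei with Neat1 at 500 UMIs pointed the same way. It was 39.7%, 35.0%, 40.5% and 31.6% in saline and 47.2%, 47.3% and 42.3% in OTV:Malat1, with no overlap and a difference of 8.90 percentage points. By exact two-sided permutation p was 0.0571, the smallest possible, and 0.5 after adjustment over 28 tests. These shares rest on the same UMIs as the levels, Malat1 included. Against anti-TfR:Malat1, whose 6 animals had 29.7% to 39.5%, OTV:Malat1 was 9.30 points higher (exact p = 0.0238, the smallest possible, and 0.5 adjusted). The edgeR difference in level between these groups was 0.28 (SE 0.10), with an edgeR adjusted p of 0.974 and an unadjusted value of 0.0158.

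Neurons, astrocytes, microglia and perivascular macrophages gave no Neat1 change past the threshold. In neurons OTV:Malat1 exceeded anti-TfR:Malat1 by 0.32 (SE 0.11) on the log2 scale, with an edgeR adjusted p of 0.898 and an unadjusted value of 0.0104, at 36.4, 41.2 and 24.8 CPM against 18.3 to 28.9. In neurons of matching clusters without doublet calls, levels added after the first values had been seen, the OTV:Malat1 animals had 4.77, 4.03 and 3.82 CPM. The anti-TfR:Malat1 animals had 3.17 to 4.92 and the saline animals 4.54 to 5.72 there, so the conjugate groups overlapped and the OTV:Malat1 mean (4.21) was below that of saline (4.93). Astrocytes in OTV:Malat1 had 303, 250.5 and 247 CPM, above all saline animals at 230.5, 152, 221 and 167, with an edgeR difference of 0.31 (SE 0.18, adjusted p = 0.998). Per 1000000 UMIs other than Malat1 they had 313, 259 and 255 against 264, 168, 246 and 179 in saline, and the groups overlapped. In microglia the differences from saline were 0.26 (SE 0.19) for Malat1 ASO, -0.16 (SE 0.19) for anti-TfR:Malat1 and 0.06 (SE 0.22) for OTV:Malat1. Called genes were 1 of 8547 in astrocytes (0.0117%) in each comparison but that of Malat1 ASO. In microglia they were 1 of 9104 (0.0110%) in the 2 comparisons of OTV:Malat1. The gene called was Malat1 each time. Neurons in anti-TfR:Malat1 differed from saline by -0.14 (SE 0.10) and were below it in 4 of 4 batches, by -0.38, -0.11, -0.18 and -0.09. In perivascular macrophages, at 23 to 63 nuclei per animal, Malat1 ASO differed from saline by -0.64 (SE 0.37), with an edgeR adjusted p of 0.889, and was below it in 4 of 4 batches, by -0.75, -1.09, -0.58 and -0.18. For anti-TfR:Malat1 the difference was -0.20 (SE 0.31) and for OTV:Malat1 -0.30 (SE 0.38). In OTV:Malat1 against saline 1 of 1418 genes was called there (0.0705%), again Malat1.

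In vascular cells both conjugate groups had lower means than saline. Saline had 637, 486, 517 and 367 CPM and OTV:Malat1 had 323, 296 and 298, so all 3 lay below all 4 saline animals. The anti-TfR:Malat1 animals ran from 84.7 through a median of 293 to 409 CPM, and the Malat1 ASO animals had 477, 617, 192 and 403. Both of these overlapped saline, and Malat1 ASO replicate 3 lay below all 3 OTV:Malat1 animals. The edgeR difference from saline was -0.89 (SE 0.32) in anti-TfR:Malat1, with an edgeR adjusted p of 1.00 and an unadjusted value of 0.00996. Of the 3312 genes tested, 0 (0%) were called and 92 were under an unadjusted 0.05. It was -0.65 (SE 0.38) in OTV:Malat1 (adjusted p = 0.882) and -0.31 (SE 0.33) in Malat1 ASO. Within batches anti-TfR:Malat1 was below saline in 4 of 4, by -1.27, -2.51, -0.55 and -0.41, and OTV:Malat1 in 3 of 3, by -0.59, -0.80 and -0.30.

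The vascular label is small and mixed. An animal gave 42 to 119 such nuclei and 6 to 109 Neat1 UMIs, and 33 of the 109 in saline replicate 1 came from 1 fibroblast-like nucleus, and the label joined endothelial, mural and fibroblast-like nuclei. When each nucleus was assigned to the marker list with most UMIs, the fibroblast-like part took 54.1% of the label in saline, 56.9% after anti-TfR:Malat1 and 51.2% after OTV:Malat1. Summed over the animals of a group, fibroblast-like nuclei had 689 CPM in saline (95% exact Poisson interval 593 to 796, counting error only), 498 in Malat1 ASO, 374 in anti-TfR:Malat1 (309 to 449) and 361 in OTV:Malat1 (270 to 474). Per animal the saline values were 826, 701, 712 and 346 CPM, those of anti-TfR:Malat1 ran from 101 to 626 and those of OTV:Malat1 from 313 to 404, so the groups overlapped, and 33 and 15 of the 185 saline UMIs came from 2 single nuclei. Endothelial-led nuclei had 385 CPM in saline from 38 UMIs, 141 in Malat1 ASO from 6, 107 in anti-TfR:Malat1 from 12 and 289 in OTV:Malat1 from 15. Of those 15 UMIs 11 came from OTV:Malat1 replicate 1, and without that animal the pooled level was 117 CPM; without Malat1 ASO replicate 3 that of Malat1 ASO was 238. Mural-led nuclei had pooled levels of 139 to 262 CPM, with intervals, of counting error only, that overlapped in all groups. Per animal they had 64.0 to 284 CPM in saline and 58.8 to 428 in Malat1 ASO. The anti-TfR:Malat1 animals had 0 to 240 CPM and the OTV:Malat1 animals 149 to 243. The pooled saline level of 209 was 129 without saline replicate 1.

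The difference between vascular cells and neurons of the same animal was compared between groups. Against saline it was -0.86 on the log2 scale in anti-TfR:Malat1 (exact two-sided permutation p = 0.0286, adjusted over 20 tests 0.381) and -0.99 in OTV:Malat1 (p = 0.0571, the smallest possible, adjusted 0.381), the latter with no overlap. Astrocytes minus neurons was 0.33 higher in anti-TfR:Malat1 (exact p = 0.0476, adjusted 0.381), with ranges that overlapped. No such difference passed adjustment. The neuron level subtracted is that of the whole label, which was 0.31 higher on the log2 scale in OTV:Malat1 than in saline, while in matched nuclei the neuron mean was lower, as given above.

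The ratio of Neat1 to Malat1 was furthest from saline in the oligodendrocytes of OTV:Malat1. Its denominator, Malat1, is the RNA that the conjugates lower. Neat1 itself differed from saline in oligodendrocytes by 0.42 in OTV:Malat1 and -0.01 in anti-TfR:Malat1, in log2(CPM + 1). The ratio therefore rises when Malat1 falls, and its tests are not tests of Neat1 alone. In oligodendrocytes it was 79.4 ± 5.23 Neat1 UMIs per 1000 Malat1 UMIs in OTV:Malat1 (74.7, 85.0 and 78.5; SD, n = 3) against 9.77 ± 0.62 in saline. The 6 anti-TfR:Malat1 animals ran from 11.9 through a median of 13.3 to 17.8, all above the saline maximum of 10.5, and the Malat1 ASO animals had 8.79, 13.3, 8.46 and 14.7. On the log2 scale the difference from saline was 3.02 for OTV:Malat1 (exact two-sided permutation p = 0.0571, the smallest possible, adjusted over 28 tests 0.114) and 0.54 in anti-TfR:Malat1 (p = 0.00952, the smallest possible, adjusted 0.0952). In astrocytes the difference was 1.99 for OTV:Malat1, below that of oligodendrocytes, and 0.80 for anti-TfR:Malat1, above that of oligodendrocytes. In vascular cells, where Malat1 was at 6.82% to 8.33% in OTV:Malat1, the log2 ratio differed from saline by -0.28 in OTV:Malat1 (p = 0.0571 by exact permutation, adjusted 0.114) and by -0.68 in anti-TfR:Malat1 (exact p = 0.0952, adjusted 0.167), where the groups overlapped.

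**Figure D4:**
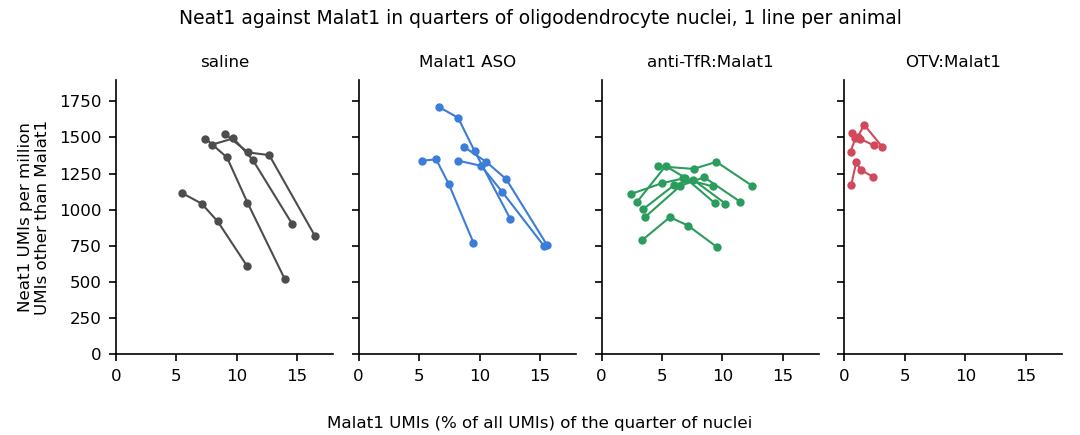
Neat1 per 1000000 UMIs other than Malat1 against the Malat1 share of UMIs in 4 equal parts of the oligodendrocyte nuclei of each animal, ordered by their Malat1 share, from nuclei in oligodendrocyte clusters without doublet calls; each line is 1 animal. The lines fall to the right in saline and Malat1 ASO and end near where they begin in both conjugate groups, with the middle parts higher in most anti-TfR:Malat1 animals.

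Among the oligodendrocyte nuclei of an animal, those with the most Malat1 had the least Neat1 in saline. The nuclei were split into 4 equal parts by the share of their UMIs that was Malat1, and Neat1 was counted per 1000000 UMIs other than Malat1. Over all nuclei of the label, the top part had 0.386 to 0.680 times the Neat1 of the bottom part in the 4 saline animals and 0.567 to 0.641 times in the 4 Malat1 ASO animals. In anti-TfR:Malat1 the ratio was 0.913 to 1.05 and in OTV:Malat1 0.786 to 0.906, above every saline and Malat1 ASO animal.

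In oligodendrocyte clusters without doublet calls, a choice made after the first values had been seen, the groups lay further apart. In saline the 4 parts had 1395, 1323, 1173 and 714 Neat1 UMIs per 1000000 other UMIs, at a Malat1 share of 7.47%, 9.24%, 10.8% and 14.0% and at median depths of 1270 to 1317 UMIs. In anti-TfR:Malat1 they had 1034, 1176, 1182 and 1035 at Malat1 shares of 3.41% to 10.4%, and in OTV:Malat1 1367, 1440, 1451 and 1369 at 0.564% to 2.64%. The log2 ratio of the top to the bottom part was -0.89, -1.52, -0.68 and -0.86 in saline, -0.83, -0.86, -0.92 and -0.79 in Malat1 ASO and -0.09, 0.05 and 0.07 in OTV:Malat1, while the 6 anti-TfR:Malat1 animals ran from -0.16 to 0.15. The parts were ordered by the RNA that the conjugates lower, so they need not hold the same kind of nuclei in treated and saline animals, and no test between groups is given.

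Each oligodendrocyte cluster showed the saline pattern on its own, here with doublet calls left in. Such calls were 1.39% of the oligodendrocyte nuclei in cluster 0, 0.17% in cluster 2 and 29.7% in cluster 15. In saline the bottom and top parts had means of 1435 and 801 in cluster 0, 1230 and 669 in cluster 2, and 1477 and 615 in cluster 15, and the top part was the deeper in each, at mean medians of 1568 against 1508, 1025 against 956 and 2976 against 2373 UMIs. In anti-TfR:Malat1 they were 1095 and 1139, 901 and 883, and 1011 and 845, and in OTV:Malat1 1436 and 1542, 1272 and 1149, and 1066 and 1297. The middle parts of cluster 15 were higher than both ends, at 1333 and 1350 in anti-TfR:Malat1 and 1686 and 1592 in OTV:Malat1.

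Set beside all genes, the saline ratio of Neat1 was near the lower end. Among 3869 genes of 50 or more CPM in oligodendrocytes, 8 (0.207%) had a lower saline mean than the -0.99 of Neat1, and 9 (0.233%) a lower mean than its -0.85 in Malat1 ASO. In anti-TfR:Malat1 51.3% of the genes were below Neat1 and in OTV:Malat1 52.9%. The saline 5th and 95th percentiles of all genes were -0.32 and 0.31, and the myelin gene Mbp stood at 0.18. This is a description across genes of the same nuclei, with no test.

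In neurons and microglia the same split gave a pattern that was not that of the matched nuclei. Over all neuron-labelled nuclei the top part had 45.7 ± 10.7 and the bottom part 12 ± 1.96 Neat1 UMIs per 1000000 other UMIs in saline, and in OTV:Malat1 the order was turned, at 21.2 ± 5.05 and 61.0 ± 9.91. Microglia did likewise, at 246 ± 91.4 against 40.7 ± 21.9 in saline and 69.5 ± 27.0 against 277 ± 30.5 in OTV:Malat1. Doublet calls were 11.2% of the top part of microglia in saline and 11.8% of the bottom part in OTV:Malat1. For neurons they were 19.6% and 24.3% of the same parts. Without doublets alone the log2 ratio of the top to the bottom part in microglia was 1.28 in saline and -0.15 in OTV:Malat1, from 2.66 and -2.05, whereas in neurons it was 2.04 and -2.51, from 1.83 and -1.49. With matching clusters and no doublets, the log2 ratio in neurons was 0.11 ± 0.30 in saline and 0.26 ± 0.17 in OTV:Malat1, and in microglia 0.41 ± 1.83 and 0.54 ± 0.37, with ranges that overlapped.

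**Figure D5:**
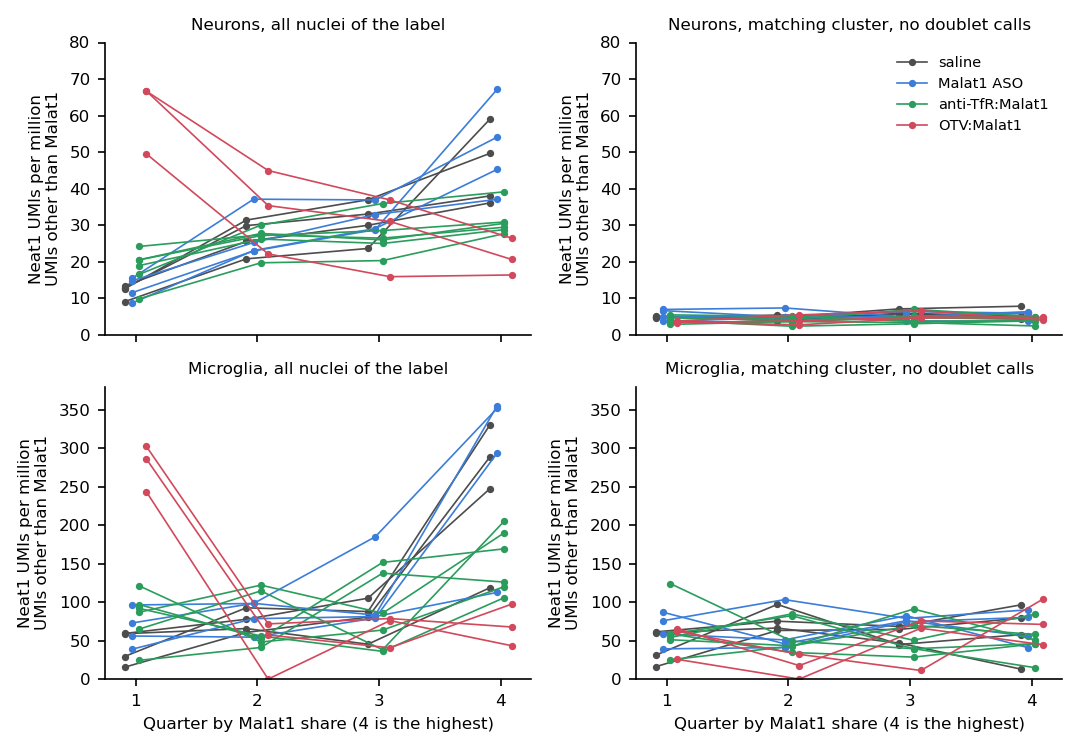
Neat1 per 1000000 UMIs other than Malat1 in 4 equal parts of neuron (top) and microglia (bottom) nuclei ordered by Malat1 share, with 1 line per animal, for all nuclei of the label (left) and for matching clusters without doublet calls (right). The lines that cross on the left, rising in saline and falling in OTV:Malat1, are close to level for neurons on the right.

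Of the other genes of the pathway, the 22 listed paraspeckle proteins were all in the table. In all nuclei and in oligodendrocytes, 22 of 22 were tested in edgeR, and 0 passed the threshold in any of the 4 comparisons. Over all genes the share called was 0% in all nuclei and at most 0.0208% in oligodendrocytes. Against saline, OTV:Malat1 oligodendrocytes had a median of -0.03 over the list on the log2 scale beside 0.01 over all genes tested, with members between -0.27 and 0.10 and 1 of the 22 under an unadjusted 0.05, beside 459 of all 14419 genes (3.18%). Nono, Sfpq and Pspc1 were at -0.02 (SE 0.09), 0.05 (SE 0.07) and -0.04 (SE 0.09). Of the 17 listed genes around Neat1, 16 were in the table and 14 were tested in oligodendrocytes. Of these 1 was called in OTV:Malat1 against saline (0.0208% of all genes were), Malat1, which fell by 2.72 (SE 0.13) in OTV:Malat1 against saline, with an edgeR adjusted p of 4.6e-10. Frmd8 was at 0.08 (SE 0.08) there.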

How the data were processed

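Single-nucleus libraries were made with 10x Genomics chemistry from dounced frozen tissue and DAPI-sorted nuclei, per the labels' protocols. The deposited table holds raw counts of UMIs per gene and nucleus. The authors also deposited per-nucleus metadata, from which the animal, treatment, cell type label, cluster, doublet call and batch were taken. Its doublet score and label score are fractions that the authors deposited, not used for any value here, and 10 of its columns were not used. Cell Ranger 6.0.1, Seurat 4 and mm10 are named in the submitters' processing notes; what called doublets, what gave the labels and what the batch stands for are not given in the sources used here, nor whether introns were counted. Deposited treatments matched the sample labels in 17 of 17 animals. Nuclei had 500 to 21871 UMIs, and there were 13841 to 18365 nuclei per animal over all labels. The level of a single label rests on fewer nuclei, fewest for Glia, perivascular macrophages and vascular cells.

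UMIs were summed per animal and label, and CPM is the count per 1000000 of that sum. Tests used animals with at least 20 nuclei of the label. The Glia levels, which were in no test, include animals with fewer. edgeR 4.0.16 in R 4.3.3 (TMM, filterByExpr, glmQLFit, glmQLFTest, batch as a term, all 17 animals) gave log2 fold changes, adjusted by Benjamini-Hochberg over all genes, with a threshold of 0.05. Single values were compared by exact two-sided permutation in SciPy 1.17.1, on log2(CPM + 1), on the log2 ratio of Neat1 to Malat1 and on shares after thinning to 500 UMIs; with 4 against 4, 6 against 4, 3 against 6 and 3 against 4 animals the smallest p is 0.0286, 0.00952, 0.0238 and 0.0571. On counts simulated for OTV:Malat1 against saline, 100 genes were changed 1.5-fold and 100 were changed 2-fold. Over all nuclei (21238 genes) the edgeR step recovered 81% and 96% of them, with 10 false calls. In oligodendrocytes (14260 genes) it recovered 49% and 89%, with 13 false calls. With so many genes changed the adjusted threshold is easier to pass than for 1 gene alone, so these shares are not the power for Neat1. In the data 0 of 21375 genes, Malat1 included, were called over all nuclei in that comparison.

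Members and lists were chosen with earlier results of these data known. Named were Neat1, Malat1, the marker genes, the 5 genes most like Neat1 over clusters, Nono, Sfpq, Pspc1, Frmd8 and any listed gene past the threshold, and some genes under this rule are not reported here. The alternatives were DESeq2 1.42.0, other size factors, Malat1 left out of the table, no filter, no batch term, the sample number as a replicate block, only the groups compared, no doublets, at least 1000 UMIs per nucleus, at least 50 nuclei per animal, matching clusters, thinning to 300 or 1000 UMIs, and each animal left out. Added after seeing the data were label joined with cluster, matching clusters without doublets for levels and for the Malat1 parts, the same ratio for all genes and vascular lists without each animal; a test of the parts between groups was dropped, since treatment changes the RNA that orders them.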

Additional observations from a re-analysis of the deposited data

Results flagged for a closer look

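Neat1 in saline replicate 3 stood apart over all nuclei when set against Malat1. It had 1.55 Neat1 UMIs per 1000 Malat1 UMIs, and the nearest of the other saline animals had 2.09. Other animals of its batch, batch 3, were also the lowest of their groups. Malat1 ASO replicate 3 had 1.43, and anti-TfR:Malat1 replicates 3 and 4 had 1.47 and 1.43. OTV:Malat1 replicate 2, of the same batch, was the highest of its group at 4.78. Within oligodendrocytes saline replicate 3 lay inside the range of the other saline animals. In Malat1 ASO replicate 4, 3.57% of microglia had Neat1 at 500 UMIs, against 5.08% in the nearest animal of the group. Chance alone marks about 1 in 20 groups in this way, and 63 groups were looked at.

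Between labels of the same animal, astrocytes minus neurons was 0.33 higher on the log2 scale in anti-TfR:Malat1 than in saline (exact two-sided permutation p = 0.0476, adjusted 0.381). Vascular cells minus neurons was -0.86 (exact p = 0.0286, adjusted 0.381). Both were marked because the unadjusted test of the difference between labels passed 0.05, and neither passed adjustment over 20 tests. Without the doublet calls the differences were as large, at 0.39 for astrocytes (adjusted 0.653) and -1.02 for vascular cells (adjusted 0.635).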

How the results depend on the processing

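No test of Neat1 passed 0.05 after adjustment, as planned or under any alternative run: 0 in the edgeR fits (lowest adjusted p 0.266, with no filter), in the permutation tests of level (0.229) and of label minus neurons (0.171), of the ratio to Malat1 (0.0794) and of the share (0.229). Permutation tests of OTV:Malat1 against saline could not pass, as their smallest p is 0.0571. With animals moved only within batches the smallest permutation p was 0.125 for Malat1 ASO, 0.0556 for anti-TfR:Malat1 and 0.25 for OTV:Malat1, each against saline. Between the conjugates it was 0.111. None of these could pass either, so their zeros say nothing on whether Neat1 changed. Among genes other than Malat1, 2 were called over all fits as planned, 108 with no filter on low counts, 36 with only the groups compared, 4 in DESeq2, 4 with the replicate block, 4 in nuclei of 1000 or more UMIs, 1 in matching clusters and 0 with Malat1 left out or without doublets. Over all nuclei the Malat1 ASO difference changed sign with only the groups compared (0.0046) and without doublets (0.0873), and with single animals left out it ran from -0.10 to 0.11; the same range was -0.0144 to 0.21 for Malat1 ASO and -0.17 to 0.0416 for anti-TfR:Malat1 in oligodendrocytes. The other 3 comparisons over all nuclei kept their sign, as did OTV:Malat1 in oligodendrocytes (0.10 to 0.30 against saline, 0.22 to 0.33 against anti-TfR:Malat1) and vascular cells (-1.07 to -0.64 for anti-TfR:Malat1, -0.80 to -0.59 for OTV:Malat1). The widest was OTV:Malat1 over all nuclei, 0.04 to 0.50 against saline and 0.17 to 0.66 against anti-TfR:Malat1.

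Saline levels moved without doublets to 152 CPM in astrocytes, 63.1 in microglia and 12.03 in neurons, in nuclei of 1000 or more UMIs to 132 in microglia and 23.9 in neurons, and in matching clusters to 55.7 and 22.1. The log2 ratio of the top to the bottom Malat1 part moved, with matching clusters and no doublets, in neurons to 0.11 (saline), -0.0095 (Malat1 ASO), -0.0444 (anti-TfR:Malat1) and 0.26 (OTV:Malat1), and in oligodendrocytes to -0.85 (Malat1 ASO), 0.0024 (anti-TfR:Malat1) and 0.0064 (OTV:Malat1). Without doublets alone it was -2.51 in OTV:Malat1 neurons and 0.0207 in anti-TfR:Malat1 oligodendrocytes, and with 1000 or more UMIs -0.90 in OTV:Malat1 neurons. The cause was not tested.

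Samples with the same number deviated together only in part (median r 0.11 over 21 pairs, from -0.20 to 0.64, 11 of them over 0.1), and so the numbers were not taken to pair them; within batches the median was 0.32 over 27 pairs. With the number as a replicate block in place of the batch, Neat1 over all nuclei differed from saline by -0.01 (Malat1 ASO), -0.28 (anti-TfR:Malat1) and 0.14 (OTV:Malat1), with 0 calls. Perivascular macrophages in nuclei of 1000 or more UMIs, and vascular cells and macrophages in matching clusters, gave no value. Among the labels tested, depth limits most the vascular and macrophage labels, at 6 to 109 and 4 to 33 Neat1 UMIs per animal.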

Other observations

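Other genes of the oligodendrocyte nuclei also differed between the parts with least and most Malat1, and they are given as values chosen for being at the ends of the saline order, with no test. The parts are ordered by the RNA that the conjugates lower, so they need not hold the same kind of nuclei in each group. On the log2 scale of the top over the bottom part, 9330111N05Rik stood at -1.27 ± 0.12 (SD, n = 4) in saline, -0.50 ± 0.17 (n = 6) in anti-TfR:Malat1 and -0.05 ± 0.05 (n = 3) in OTV:Malat1. Tmem132d, which encodes a membrane protein, stood at -1.13 ± 0.18, 0.13 ± 0.19 and 0.10 ± 0.05 in the same order, so it ran beside Neat1 at -0.99 ± 0.37, 0.00 ± 0.11 and 0.01 ± 0.09. The lowest in saline, Gm28322, was at -1.30 ± 0.21, 0.15 ± 0.33 and 0.47 ± 0.21. Slc7a15 was at -1.13 ± 0.58 in saline and stayed low in anti-TfR:Malat1, at -1.01 ± 0.61, with -0.25 ± 0.30 in OTV:Malat1. The Malat1 ASO animals, not used to choose the genes, had -1.15 for 9330111N05Rik, -0.98 for Tmem132d, -1.07 for Gm28322 and -0.69 for Slc7a15.

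At the other end, Synpr, a synaptic vesicle protein gene, stood at 2.11 ± 0.45 in saline, while anti-TfR:Malat1 was at -1.05 ± 0.23 and OTV:Malat1 at -1.27 ± 0.24. Nckap5 was at 2.72 ± 0.67, 0.18 ± 0.33 and -0.26 ± 0.77, and Man1a at 2.32 ± 0.67, -0.22 ± 0.39 and -0.76 ± 0.49. For 9630013A20Rik the values were 2.96 ± 1.19, 2.16 ± 0.67 and 1.88 ± 1.60, high in all groups. In Malat1 ASO Synpr was at 2.03, Nckap5 at 2.72, Man1a at 2.32 and 9630013A20Rik at 3.20.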
